A study of Oryza sativa with 20 samples.

Results

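In seedlings of rice (Oryza sativa), the blade of the first complete leaf was compared between its first and second sampled stages, S1 and S2. The comparison takes the 4 blade libraries of these stages, 2 per stage, out of 20 libraries in the series, chosen by their labels for tissue and stage. The series holds lamina joint (LJ), the hinge between blade and sheath, and blade at 5 stages that, per the series design, span leaf formation until the leaf angle is set. Blade at S1 and blade at S2 are tissue of seedlings raised in water under a light and dark cycle. No genotype, cultivar or treatment is given, and all groups share these growth conditions. Tissue was cut on days 4, 5, 6, 7 and 9 after germination, but which day belongs to which stage is not given. Blade pieces were under 10 mm long and LJ pieces under 1 mm, so a piece can hold tissue of different ages along the leaf. How many seedlings went into a library, and whether the 2 libraries of a stage came from separate plants, is not given. The p-values therefore cover only how far these libraries differ from each other, and that spread may be technical.

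A grass leaf grows from its base. Cells divide in a basal zone, then elongate, and then mature into photosynthetic tissue with thickened veins, so a young blade holds dividing, expanding and maturing cells at once. Before each S phase the origin recognition complex loads the MCM proteins onto DNA as the replicative helicase, cyclins then drive cyclin-dependent kinases through the cell cycle, and GRF transcription factors with their partner GIF1 promote cell proliferation in leaves. Expansins and aquaporins act in cell enlargement, and cellulose synthases and lignin enzymes build the walls.

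Expression was deposited as FPKM, fragments scaled by transcript length and by library size, for 37829 gene IDs. The 26403 that reached 1 FPKM in at least 2 of the 20 libraries were tested. Differences are given as S2 minus S1 in mean log2(FPKM + 1), with the standard error (SE) of the fit, and a call means a limma p under 0.05 after Benjamini-Hochberg adjustment over the 26403 genes. Changes of genes at low FPKM come out too small on this scale, and the read depth is unknown. The tissue label was checked against marker genes. All 5 chloroplast markers (CAB1R, CAB2R, RCA, GLK1 and GLK2) were above 0 in each blade library, but they were above 0 in each LJ library too. Their summed levels in blade were 3790 and 5070 FPKM at S1. The most abundant markers weigh most in a sum, and RCA and GLK1 stood far below CAB2R at S1. At S1 both blade sums lay above the LJ sums of 687 and 1300 FPKM, while at S2 the blade sums of 12200 and 1670 FPKM overlapped the LJ sums of 2220 and 829 FPKM. The 5 KNOX genes that mark the shoot meristem summed to 0.821 and 0.473 FPKM at S1 and to 0.168 and 0.0752 FPKM at S2, where 3 and 4 of them were listed at 0. The ligule gene LG1 lay between 2.74 and 4.24 FPKM in the 4 libraries and overlapped LJ at S2 (5.03 and 3.34 FPKM). The midrib gene DL lay between 0.235 and 0.859 FPKM, below the 10.1 to 23.1 FPKM of the LJ libraries of these stages.

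The S2 libraries resembled each other less than the S1 libraries did. Replicates correlated across genes at 0.976 at S1 and 0.953 at S2 (Pearson). Their difference had an SD across genes of 0.471 and 0.664 on the log2 scale. In a principal component analysis of the 4 libraries the first component, with 52.8% of the variance, separated the stages. The second, with 31.7%, held the S2 libraries apart, at 57.1 and −49.1. Library 1 of S2 correlated with the blade S3 libraries at 0.93 and 0.946, and library 2 at 0.881 and 0.910. With the blade S1 libraries, library 1 was at 0.945 and 0.944 and library 2 at 0.936 and 0.945, so library 2 was not nearer to S1. With the LJ S2 libraries, library 1 was at 0.853 and 0.860 and library 2 at 0.880 and 0.904. Of the S2 chloroplast marker sums given above, that of library 1 lay above and that of library 2 below both S1 libraries. Not each marker followed its sum: in library 2 RCA lay above both S1 libraries and GLK1 within their range.

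The genes called between S1 and S2 were mostly lower at S2. The named ones that fell were genes of DNA replication, the cell cycle and growth regulation and the leaf polarity gene YAB3, and those that rose were PIN1b, GH3-1 and CSLF6. Of 26403 genes, 734 were called (2.78%). Lower at S2 were 566 (2.14%), and higher were 168 (0.636%). By at least 2-fold on this scale, 434 fell and 162 rose, and by at least 4-fold, 44 fell and 48 rose. In each of the 734 both S2 libraries lay outside the range of the S1 libraries, as they did, higher or lower, in 49.3% of all tested genes. The median difference of all genes was −0.08. Of 190 named genes tested, 14 fell, 3 rose and 173 were not called. The calls rest on the spread shared by all 10 groups: with only the blade S1 and S2 libraries fitted, limma called 0 genes, with 4615 at an unadjusted p under 0.05 against 4869 in the fit of all groups. The count was 93 without S1 library 1, 236 without S1 library 2, 244 without S2 library 1 and 379 without S2 library 2, and of the last 43.5% were higher against 22.9% with all libraries. With a pseudocount of 0.1 in place of 1 it was 159, and of the 17 named calls MCM2, MCM7, GRF8 and GIF1 were kept.

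**Figure D1:**
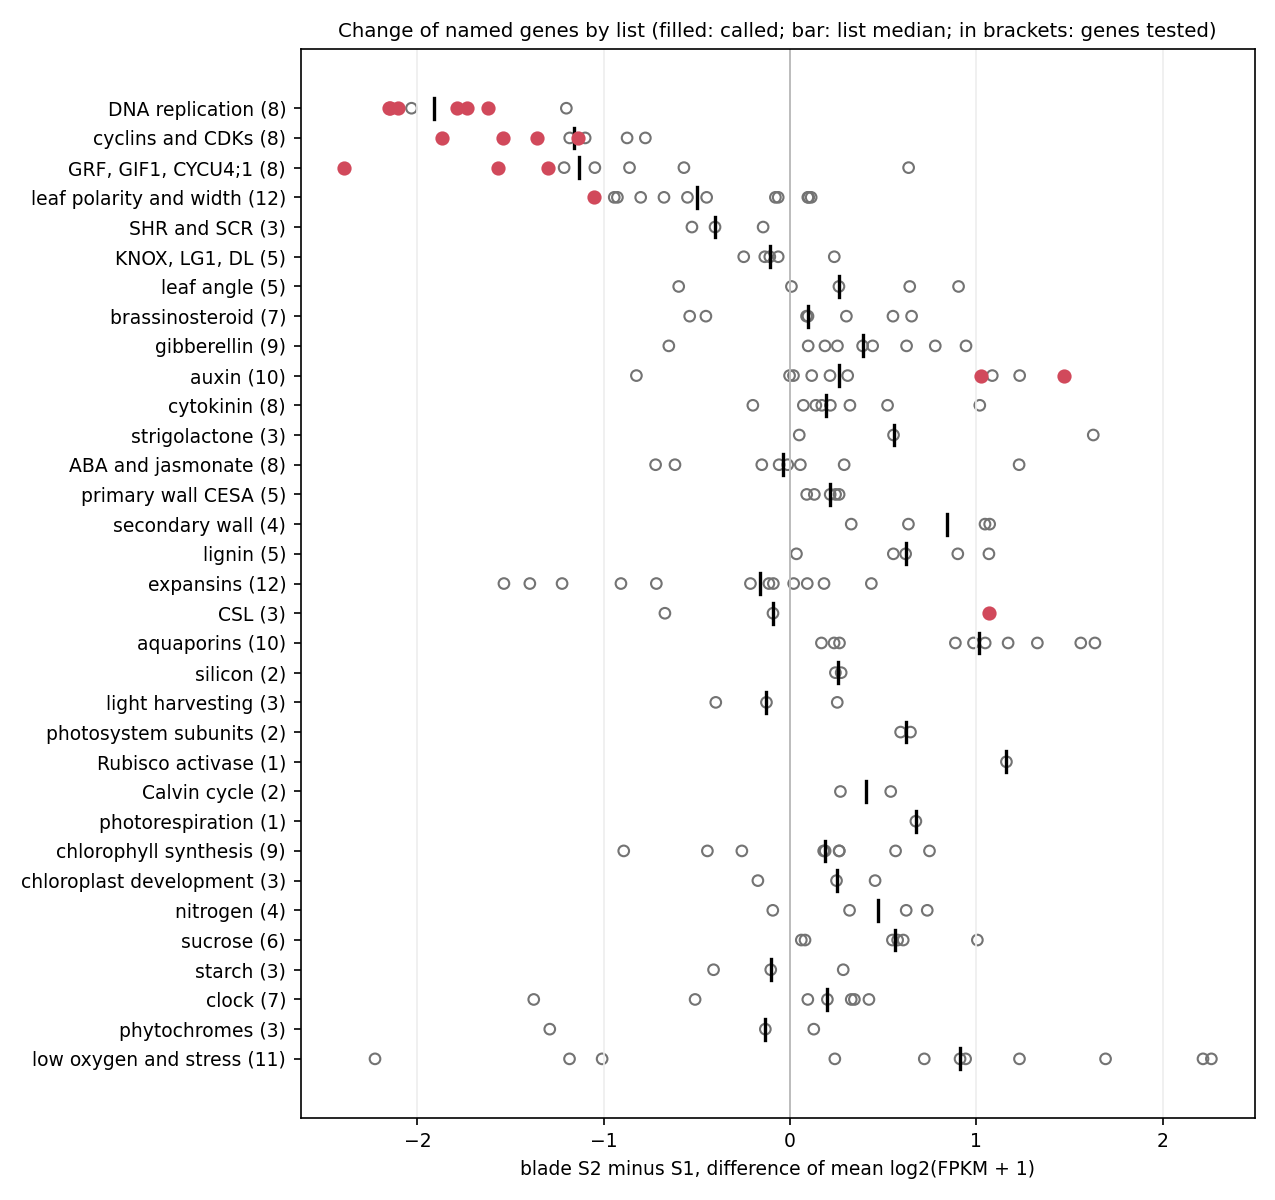
Difference between blade S2 and S1 in mean log2(FPKM + 1) for 190 named genes (circles), grouped by list with the number tested in brackets; filled circles were called and bars are list medians. The filled circles on the left belong to the lists of DNA replication (6 of 8), cyclins and CDKs (4 of 8), growth regulators (3 of 8) and leaf polarity (1 of 12), and those on the right to auxin genes and CSLF6.

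Genes of DNA replication had the lowest median of the lists. Of 8 tested, 6 fell, against 2.14% of all genes. In all 8 both S2 libraries lay below both S1 libraries, against 31.8% of all genes. Their median difference was −1.91, against −0.08 over all genes. The 6 were MCM2 to MCM7, the subunits of the replicative helicase, which lay between 14.5 and 25.9 FPKM in the S1 libraries and between 2.53 and 9.05 FPKM in the S2 libraries. MCM6 (OS05G0235800) was at 21.5 and 25.2 FPKM at S1 and at 3.11 and 6.23 FPKM at S2. This was the largest difference of the list, −2.16 ± 0.32 (SE, limma adjusted p = 0.00435), with mean levels of 23.4 ± 2.63 and 4.67 ± 2.2 FPKM (SD, n = 2), 5.00-fold apart. MCM7 (OS12G0560700) differed by −2.15 ± 0.28 (adjusted p = 0.00161) and MCM2 (OS11G0484300) by −2.11 ± 0.32 (adjusted p = 0.00517). MCM5 differed by −1.79, MCM4 by −1.74 and MCM3 by −1.62. PCNA (OS02G0805200), the sliding clamp of DNA polymerase, had the highest level of the list. It stood at 236 and 168 FPKM at S1 and at 38.5 and 59.7 FPKM at S2, and its difference of −2.03 ± 0.57 was not called (adjusted p = 0.0754). ORC1, a subunit of the origin recognition complex, was at −1.20 ± 0.36 and also not called (adjusted p = 0.0902). In bulk tissue a smaller share of dividing cells and less RNA per dividing cell cannot be told apart. The summed level of the KNOX genes that mark the meristem, given above, was also lower in both S2 libraries. Singly, OSH15 overlapped between the stages, and OSH43 averaged 0.0205 FPKM at S1 and 0.0745 FPKM at S2. The KNOX genes stood under 1 FPKM in total in each of the 4 libraries, where no fall could be measured. Their part in this result or in the cyclin result was not tested. The S2 libraries differed here too: library 1 was the lower one for each of the 8 genes. MCM3 lost its call without S1 library 1 (adjusted p = 0.0923), S1 library 2 (0.137) or S2 library 1 (0.129) and with LJ and blade libraries paired (0.0505), and MCM4 without S1 library 1 (0.0633). With a pseudocount of 0.1 the list kept 2 calls.

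Cyclin and CDK genes lay lower at S2 in the same way. Of 8 tested, 4 fell, against 2.14% of all genes, and in all 8 the S2 libraries were below the S1 libraries, against 31.8% of all genes. The median difference was −1.16. CYCA3;1 (OS03G0607600), an A-type cyclin gene, was at 20.1 and 16.0 FPKM at S1 and at 2.99 and 5.74 FPKM at S2, a difference of −1.87 ± 0.26 (SE, limma adjusted p = 0.00314). The mitotic cyclin genes CYCB2;2 (OS06G0726800) and CYCB1;1 (OS01G0805600) fell from means of 47.2 ± 2.31 and 80.3 ± 7.64 FPKM to 15.6 ± 1.74 and 35.9 ± 4.13 FPKM (SD, n = 2). Their differences were −1.54 ± 0.28 (adjusted p = 0.0109) and −1.14 ± 0.26 (adjusted p = 0.0350). CDKA;2 (OS02G0123100), one of a pair of A-type cyclin-dependent kinase genes, fell by 1.36 (adjusted p = 0.0127). The other, CDKA;1, had the highest level of the list, at 127 and 114 FPKM at S1 and at 72.8 and 67.1 FPKM at S2, and its difference of −0.78 ± 0.25 was not called (adjusted p = 0.119). The B-type kinases CDKB1;1 and CDKB2;1, made around mitosis, were at −0.88 and −1.10, and CYCB2;1 was at −1.18, none of them called. CYCB1;1 lost its call in each fit with 1 of the 4 libraries left out (adjusted p up to 0.219, without S1 library 1). CDKA;2 lost it in 3 (up to 0.0981, without S1 library 2) and CYCB2;2 in 3 (up to 0.102, without S1 library 1), while CYCA3;1 was called in all 4. With a pseudocount of 0.1 the list had 0 calls.

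**Figure D2:**
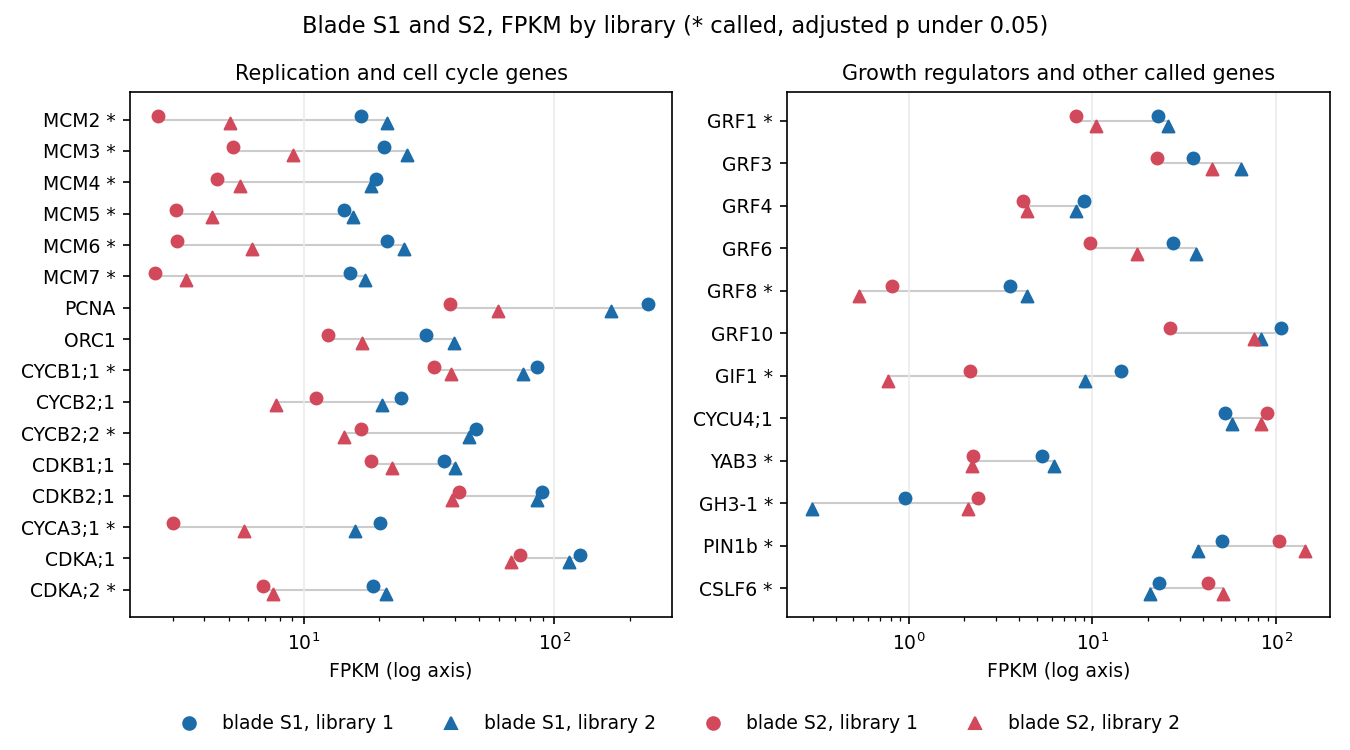
FPKM (log axis) of replication and cell cycle genes (left) and of growth regulators and the other called genes (right) in the 4 blade libraries; blue is S1, red is S2, circles are library 1, triangles library 2 and asterisks mark called genes. All 16 genes on the left have both red symbols to the left of both blue symbols, while GH3-1, PIN1b and CSLF6 have them to the right.

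Most growth regulators lay lower at S2. Of 8 tested, 3 fell, against 2.14% of all genes, and none of the others was called. In 7 the difference was below 0, as in 15008 of all 26403 genes. In 6 both S2 libraries lay below both S1 libraries, against 31.8% of all genes. The median was −1.13. GIF1 (OS03G0733600), the transcriptional coactivator that binds GRF proteins, was at 14.3 and 9.06 FPKM at S1 and at 2.15 and 0.771 FPKM at S2. Its difference of −2.39 ± 0.41 (SE, limma adjusted p = 0.00871) was the largest fall among the named genes, with means 8.01-fold apart. GRF8 (OS11G0551900) fell by 1.57 (adjusted p = 0.00373), from a mean of 3.96 ± 0.590 to 0.675 ± 0.195 FPKM (SD, n = 2). GRF1 (OS02G0776900) fell by 1.3 (adjusted p = 0.0398), from 24.2 ± 2.1 to 9.30 ± 1.70 FPKM. GRF10, the GRF gene with the highest level in these libraries, was at 107 and 83.0 FPKM at S1 and at 26.6 and 75.6 FPKM at S2, so its difference of −1.05 came mainly from S2 library 1. GRF6 (−1.21, adjusted p = 0.0588), GRF4 (−0.86) and GRF3 (−0.57) were not called. CYCU4;1 (OS10G0563900), a U-type cyclin gene known for its action in the lamina joint, lay the other way. It was at 52.7 and 57.2 FPKM at S1 and at 89.1 and 82.8 FPKM at S2. It was higher in both S2 libraries, as were 17.5% of all genes, but not called (0.64 ± 0.27, adjusted p = 0.220). GRF1 lost its call in each fit with 1 library left out (adjusted p up to 0.195, without S1 library 2), under upper quartile scaling (0.0511) and with no filter (0.0519). GIF1 lost it without S1 library 1 (0.104) or S2 library 2 (0.0639), and GRF8 was called in all 4.

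Among 12 genes of leaf polarity and width, 1 fell, against 2.14% of all genes, and the median was −0.50, against −0.08 over all genes. In 6 both S2 libraries lay below both S1 libraries, against 31.8% of all genes. YAB3 (OS10G0508300), a YABBY transcription factor gene of young lateral organs, was at 5.33 and 6.14 FPKM at S1 and at 2.25 and 2.22 FPKM at S2 (−1.06 ± 0.18, SE, limma adjusted p = 0.00895). Without S1 library 1 or 2 its adjusted p was 0.0556 and 0.0756. The HD-ZIP III genes HOX33, HOX32, HOX10 and HOX9, which set the upper side of the leaf, were at −0.93, −0.80, −0.68 and −0.08, not called. YAB5 was at −0.94 (adjusted p = 0.0623) and YAB1 at 0.11. ROC5, a homeobox gene of the epidermis that affects leaf rolling, had the highest level of the list and stayed between 42.8 and 51.2 FPKM in all 4 libraries. SHR1, SCR1 and SCR2, regulators of ground tissue, were at −0.53, −0.40 and −0.15, with 0 of 3 called, against 2.78% of all genes.

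The 3 named genes that rose belong to auxin biology and to the wall. PIN1b (OS02G0743400), an auxin efflux carrier gene, was at 50.5 and 37.5 FPKM at S1 and at 104 and 144 FPKM at S2. Its difference of 1.47 ± 0.32 (SE, limma adjusted p = 0.0255) put the means 2.82-fold apart. GH3-1 (OS01G0785400), which encodes an enzyme that joins auxin to amino acids, was at 0.950 and 0.298 FPKM at S1 and at 2.39 and 2.09 FPKM at S2 (1.03 ± 0.24, adjusted p = 0.0394). CSLF6 (OS08G0160500), the synthase of the mixed-linkage glucan of grass walls, was at 22.96 and 20.63 FPKM at S1 and at 42.4 and 51.6 FPKM at S2 (1.07 ± 0.26, adjusted p = 0.0459). All 3 calls were lost without any 1 of the 4 libraries, with adjusted p up to 0.184 for PIN1b, 0.272 for GH3-1 and 0.214 for CSLF6, each without S1 library 2. That of CSLF6 was also lost under upper quartile scaling (0.0612) and quantile normalization (0.0601), and those of CSLF6 and GH3-1 with LJ and blade libraries paired (0.0505 and 0.0616). Of 10 auxin genes 2 rose, 0.636% of all genes being called higher, and the median of the list was 0.26. The response repressor gene IAA1 was at 1.23, the conjugating enzyme gene GH3-8 at 1.09 and the auxin synthesis gene YUCCA1 at −0.83, none of them called. PIN1a, the close relative of PIN1b, was at 0.31. The other cellulose synthase-like genes, CSLD2 and CSLD4, were at −0.09 and −0.67.

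Other hormone genes gave no calls. Over all genes 2.78% were called, and at that share lists this short would often hold none. Limma called 0 of 7 brassinosteroid genes (median 0.10), 0 of 9 gibberellin genes (0.39), 0 of 8 cytokinin genes (0.19), 0 of 8 abscisic acid and jasmonate genes (−0.04), 0 of 3 strigolactone genes (0.56) and 0 of 5 leaf angle genes (0.26). D14 (OS03G0203200), the strigolactone receptor gene, came nearest. It was at 70.1 and 50.6 FPKM at S1 and at 289 and 120 FPKM at S2, and its difference of 1.63 ± 0.47 had an adjusted p of 0.0836. In both S2 libraries it was above both S1 libraries, as were 17.5% of all genes, with library 1 above library 2. BZR1, a transcription factor of brassinosteroid signalling, had the highest level of its list and stayed between 154 and 205 FPKM. GID2, the F-box gene of gibberellin signalling, was at 145 and 163 FPKM at S1 and at 114 and 83.2 FPKM at S2 (−0.65, adjusted p = 0.161). It was the only gene of its list with a difference below 0. The other 8 lay above 0, as did 11145 of all 26403 genes. In 6 of the 9 both S2 libraries lay above both S1 libraries, against 17.5% of all genes. RR6, a cytokinin response regulator gene, was at 41.5 and 30.1 FPKM at S1 and at 63.1 and 83.5 FPKM at S2 (1.02, adjusted p = 0.187). AOC, which acts in jasmonate synthesis, was at 167 and 177 FPKM at S1 and at 133 and 80.8 FPKM at S2 (−0.72, adjusted p = 0.472). BU1, a bHLH gene of lamina bending, was at 8.05 and 9.18 FPKM at S1 and at 15.3 and 12.8 FPKM at S2 (0.64, adjusted p = 0.163).

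Wall and water channel genes gave no further calls, although several lists leaned to higher values at S2. All 10 aquaporin genes tested had differences above 0, as did 11145 of all 26403 genes, and their median was 1.02. In 7 both S2 libraries lay above both S1 libraries, against 17.5% of all genes. None of the 10 was called, against 2.78% of all genes. Some lay close to 0: TIP1;2, at 1.02 FPKM or less, was at 0.24 ± 0.91. With 1 library left out, PIP1;1 and PIP1;3 went as low as −0.002 and −0.417. PIP2;1 (OS07G0448800), a plasma membrane water channel gene, was at 1390 and 2005 FPKM at S1 and at 2443 and 4874 FPKM at S2 (1.05 ± 0.46, limma adjusted p = 0.238). The vacuolar channels TIP1;1 (1.33 ± 0.42, adjusted p = 0.113) and TIP2;2 (1.17 ± 0.37, adjusted p = 0.112) had like values. PIP2;7 was the nearest to a call, from 0.0645 and 0 FPKM to 1.36 and 2.93 FPKM (1.56 ± 0.42, adjusted p = 0.0641). It was called in a fit without the S4 libraries and with a pseudocount of 0.1. The 12 expansin genes, whose products loosen walls, scattered from −1.54 (EXPA5) to 0.44 (EXPB4), with a median of −0.16. EXPB4 had the highest level, at 284 and 428 FPKM at S1 and at 569 and 391 FPKM at S2.

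The 5 primary wall cellulose synthase genes stayed near 0, between 0.09 and 0.26. CESA1 was at 109 and 153 FPKM at S1 and at 153 and 148 FPKM at S2. The 4 secondary wall genes, which thicken veins and fibres, had a median of 0.84 with 0 called, against 2.78% of all genes. CESA7 was at 18.7 and 15.7 FPKM at S1 and at 54.4 and 25.2 FPKM at S2 (1.07 ± 0.46, adjusted p = 0.233). The 4 genes summed to 35.3 and 33.3 FPKM at S1 and to 95.5 and 45.6 FPKM at S2, so the lean to S2 came mainly from library 1. The 5 lignin genes had a median of 0.62 with 0 called, against 2.78% of all genes. COMT1, a methyltransferase gene of lignin synthesis, was at 145 and 114 FPKM at S1 and at 340 and 105 FPKM at S2. CAD7 went the other way between the S2 libraries, at 17.8 and 235 FPKM, against 38.6 and 46.4 FPKM at S1. The silicon transporter genes Lsi1 and Lsi6 were at 0.24 and 0.27.

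Chloroplast genes split the S2 libraries and were not called. The 3 light-harvesting genes had a median difference of −0.13 between stages, but a median difference of 2.67 between library 1 and library 2 of S2. LHCB2, a photosystem II antenna gene with the highest level of the list, was at 3033 and 5463 FPKM at S1 and at 9126 and 1522 FPKM at S2. CAB2R was at 1395 and 1809 FPKM at S1 and at 6696 and 535 FPKM at S2. Its difference of 0.25 ± 1.28 ran from −1.57 without S2 library 1 to 2.08 without S2 library 2. PORA, the protochlorophyllide reductase gene of dark-grown and greening tissue, was at 1088 and 2424 FPKM at S1 and at 1695 and 451 FPKM at S2, and the 9 chlorophyll synthesis genes had a median of 0.19. GLK1, a transcription factor gene of chloroplast development, was at 71.4 and 103 FPKM at S1 and at 194 and 71.9 FPKM at S2.

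Genes of carbon fixation were less divided. RCA (OS11G0707000), which encodes Rubisco activase, was at 134 and 138 FPKM at S1 and at 359 and 258 FPKM at S2. It was higher in both S2 libraries, as were 17.5% of all genes. Its difference of 1.16 ± 0.99 was not called (adjusted p = 0.590). The Calvin cycle genes ALDP and RPE were at 0.54 and 0.27 and the photorespiration gene GLO1 at 0.68. The photosystem subunit genes PSBW and PSAH, which are not genes of carbon fixation, were at 0.65 and 0.59. With 1 library left out, PSBW ran from 0.12 to 1.17 and PSAH from 0.23 to 0.95. Of 4 nitrogen genes, 6 sucrose genes, 3 starch genes, 7 clock genes and 3 phytochrome genes limma called 0, against 2.78% of all genes. Their medians were 0.47, 0.56, −0.10, 0.20 and −0.13. SUS1, a sucrose synthase gene, was at 700.9 and 618.3 FPKM at S1 and at 1234 and 783 FPKM at S2.

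**Figure D3:**
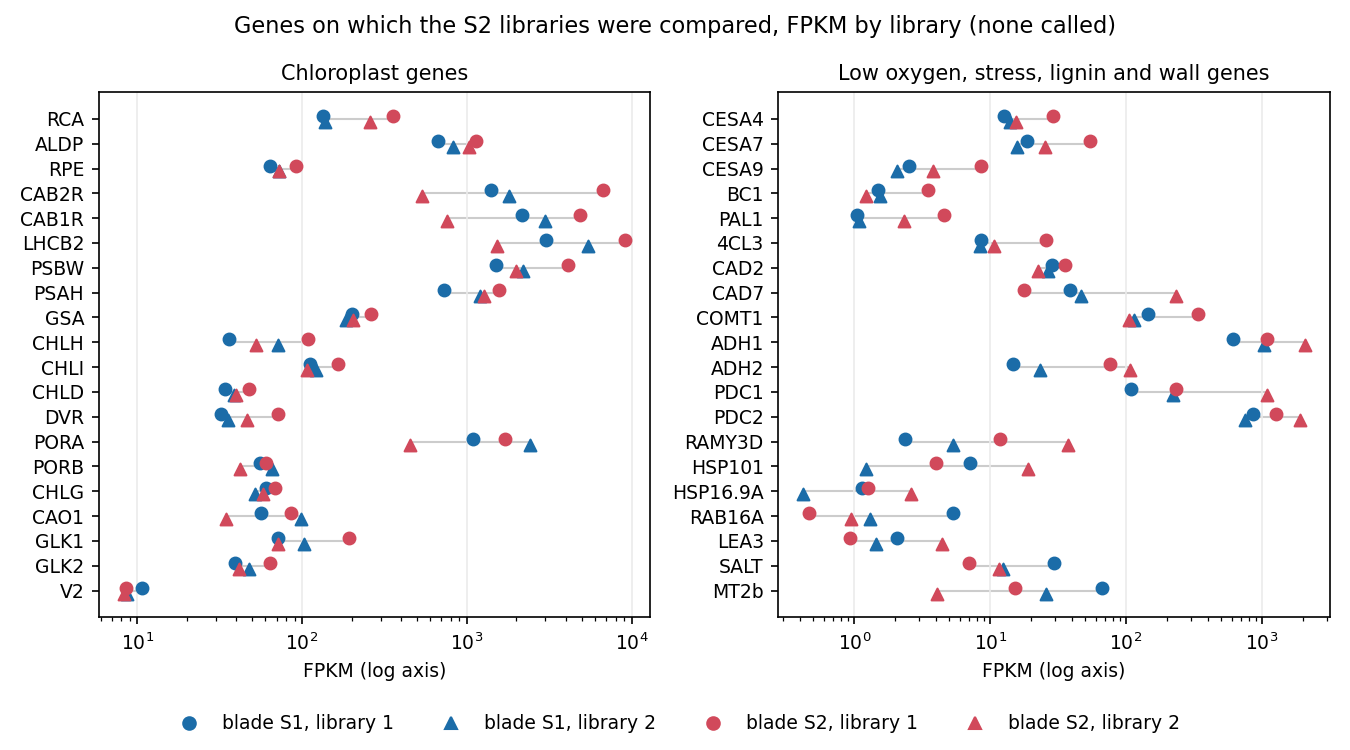
FPKM (log axis) of chloroplast genes (left) and of wall, lignin, low oxygen and stress genes (right) in the 4 blade libraries; blue is S1, red is S2, circles are library 1 and triangles library 2, and none of these genes was called. For CAB2R, CAB1R, LHCB2 and PORA the red triangle lies below both blue symbols, and for PDC1, CAD7 and HSP101 it lies above them.

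Genes of low oxygen metabolism and stress had a median of 0.91, with 0 of 11 called, against 2.78% of all genes. ADH1 (OS11G0210300), an alcohol dehydrogenase gene of fermentation, was at 616 and 1028 FPKM at S1 and at 1086 and 2064 FPKM at S2 (0.91 ± 0.62, limma adjusted p = 0.479). ADH2, a paralog of ADH1, was at 14.8 and 23.1 FPKM at S1 and at 75.7 and 106 FPKM at S2 (2.22 ± 0.67, adjusted p = 0.0932). PDC1, which encodes the pyruvate decarboxylase that precedes alcohol dehydrogenase, was at 109 and 220 FPKM at S1 and at 232 and 1091 FPKM at S2 (1.69, adjusted p = 0.540). In these genes library 2 was the higher at both stages. Its chloroplast marker sum was the lower at S2 (1670 against 12200 FPKM) but the higher at S1 (5070 against 3790 FPKM). The heat shock gene HSP101 was at 7.15 and 1.21 FPKM at S1 and at 4.01 and 18.9 FPKM at S2. The metallothionein gene MT2b lay lowest of the list, at 66.9 and 25.8 FPKM at S1 and at 15.3 and 4.09 FPKM at S2 (−2.23 ± 0.71, adjusted p = 0.112).

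The later blade stages were also described for the called genes. Of the 566 genes that fell, 13 had their lowest blade mean at S2, 66 at S3, 256 at S4 and 231 at S5. Of the 168 that rose, 23 had their highest blade mean at S2, 66 at S3, 52 at S4 and 27 at S5. A called gene could not have these extremes at S1, and the same shares over all tested genes are not given. In the blade S4 libraries 19581 and 18265 gene IDs reached 1 FPKM, against 21120 and 21553 at S1. The bearing of this on the counts was not tested. From S2 to S3, 2769 genes were called (10.5%), 1414 lower (5.36%) and 1355 higher (5.13%), in a comparison that shares the S2 libraries. Of the named genes that fell by S2, MCM6 averaged 0.158 FPKM at S3 and 0.0103 FPKM at S5, and the step from S2 to S3 was again called (−2.24, adjusted p = 6.76e-04). CYCB1;1 averaged 2.27 FPKM at S3 (−3.50, adjusted p = 6e-06) and 0.113 FPKM at S5. GIF1 averaged 0.265 FPKM at S3, where the step was not called (−0.90, adjusted p = 0.186), and was listed at 0 in both libraries of S4 and S5. PIN1b stood at a mean of 133 FPKM at S3 and then at 28.3 and 5.89 FPKM at S4 and S5, and CSLF6 at 62.9, 11.8 and 2.19 FPKM. GH3-1 averaged 3.8 FPKM at S3 and was listed at 0 in both S5 libraries. The 3 genes that rose by S2 thus stood below their S1 means at S5.

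**Figure D4:**
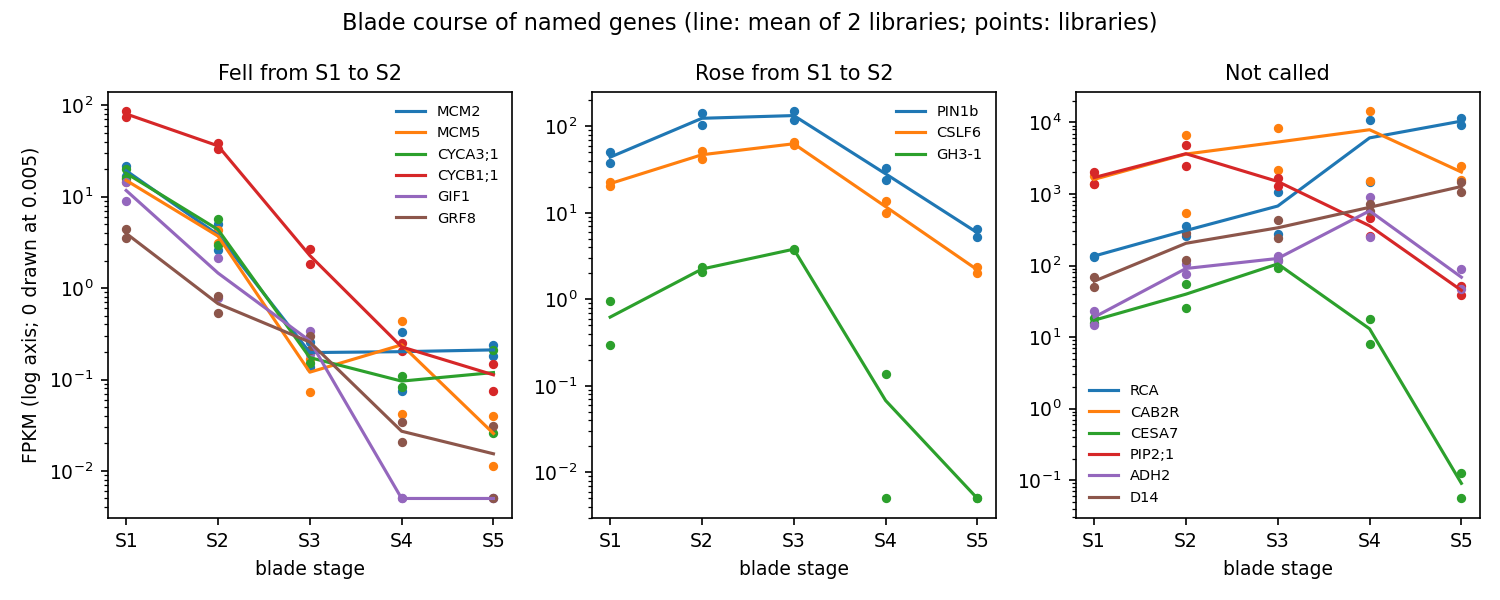
FPKM (log axis) of named genes in blade from S1 to S5, as means (lines) of 2 libraries (points), with 0 drawn at 0.005; left, genes that fell from S1 to S2, middle, genes that rose, right, genes that were not called. The genes on the left lie under 3 FPKM at S3, and PIN1b, CSLF6 and GH3-1 have their highest mean at S3.

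The step from S1 to S2 was also set beside that of the lamina joint at the same stages. In LJ, 437 genes were called (1.66%), 250 lower (0.947%) and 187 higher (0.708%). Of the 8 replication genes 3 fell there, MCM5, MCM6 and MCM7, and the median was −1.04 against −1.91 in blade. MCM6 was at 44.2 and 48.5 FPKM in LJ at S1 and at 24.4 and 11.7 FPKM at S2, each above the blade level of its stage. Cyclin and CDK genes had a median of −0.46 in LJ with 0 of 8 called. The 10 aquaporin genes, with a median of 1.02 and 0 called in blade, had a median of 1.35 in LJ, where 2 were called higher. The leaf angle gene BU1, not called in blade, rose in LJ by 1.66 (limma adjusted p = 0.00274). GIF1 fell in LJ too, from 193 and 130 FPKM to 47.3 and 39.9 FPKM (−1.84, adjusted p = 0.0396), as did GRF8 (−1.45, adjusted p = 0.00530) and YAB3 (−0.99, adjusted p = 0.0131). In the test of the difference between the tissues' changes, 30 genes were called (0.114%), 23 lower (0.0871%) and 7 higher (0.0265%) in blade relative to LJ, and none was a named gene. The count was 202 when the LJ and blade libraries that share a stage and a replicate number were treated as pairs. The named gene CYCU4;1 was then called, its blade change being lower than that of LJ. Across genes, the replicate differences of LJ and blade correlated at 0.213 at S2, the lowest value of the 5 stages. OSH1, OSH15 and OSH71 also passed, but they entered the test through LJ libraries alone and stood at 0.215 FPKM or less in all 4 blade libraries, where no fall could be measured. Their values restate the fall in LJ and show no difference between tissues in the change. The difference for MCM6 was −0.76 (adjusted p = 0.633 with pairs) and for CYCA3;1 −0.90 (adjusted p = 0.247 with pairs), so a larger fall in blade was not shown.

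**Figure D5:**
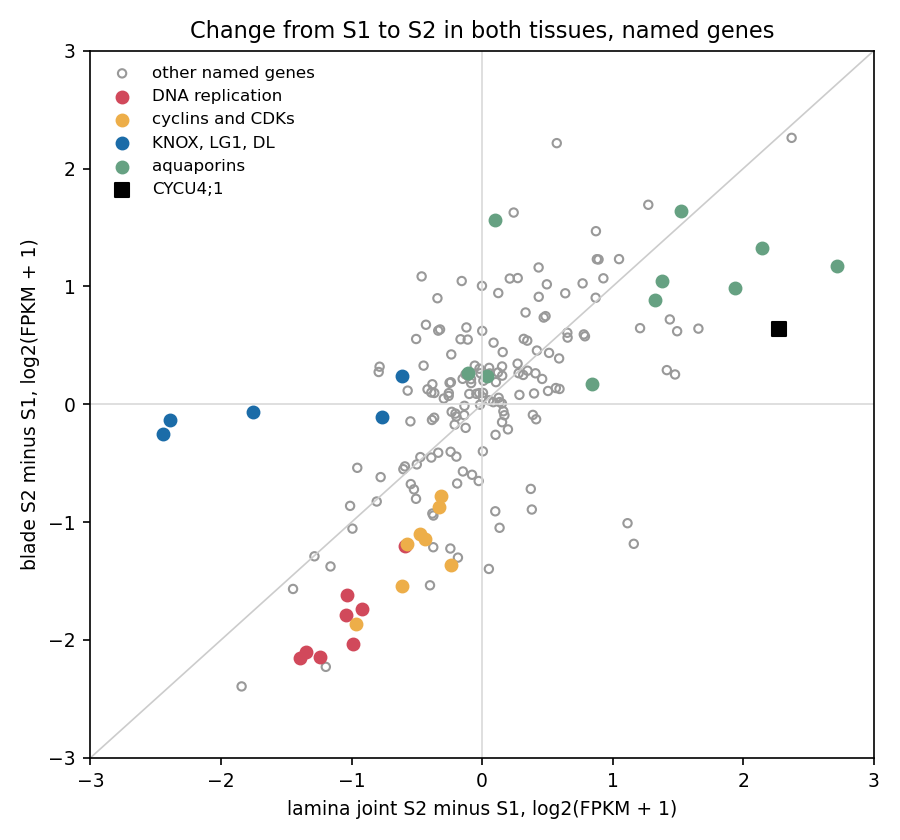
Change from S1 to S2 in mean log2(FPKM + 1) of 190 named genes in lamina joint (horizontal axis) and blade (vertical axis), with the line of equal change; colours mark lists. Replication, cyclin and CDK genes lie below 0 in both tissues, CYCU4;1 lies at 2.27 in lamina joint and 0.64 in blade, and OSH1, OSH15 and OSH71 lie at −1.75 to −2.44 in lamina joint and near 0 in blade.

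The files do not pair gene IDs with names, and most called genes are therefore not named. Among them the largest fall was that of OS01G0327500 on chromosome 1, at 92.9 and 69.1 FPKM at S1 and at 4.75 and 3.51 FPKM at S2 (−3.99 ± 0.70, limma adjusted p = 0.00964). OS07G0429700 on chromosome 7 followed, at 25.7 and 8.75 FPKM at S1 and at 1.02 and 0.115 FPKM at S2 (−3.43 ± 0.57, adjusted p = 0.00777). Of the genes that rose, OS07G0141650 on chromosome 7 was listed at 0 in both S1 libraries and was at 13.1 and 11.5 FPKM at S2 (adjusted p = 0.0251), and OS02G0823500 on chromosome 2 was listed at 0 at S1 and was at 13.8 and 7.68 FPKM at S2 (adjusted p = 0.0359). In all, 6 tested genes were under 1 FPKM in both S1 libraries and at 5 FPKM or more in both S2 libraries, and 14 were the reverse.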

How the data were processed

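The labels' protocol gives TRIzol extraction and an NEBNext Ultra kit. Strandedness is not given, so reads of genes that overlap or lie antisense are not separable here, and close copies may share reads. The values deposited by the authors are FPKM. The submitters' processing notes name the build IRGSP-1.0 and, as tools, Cufflinks 2.2.1, TopHat2 2.1.1, Trimmomatic 0.36 and CASAVA 1.8. Of 82632 features, 44803 whose IDs start with EPlOSAG were not tested. Steps between low values gave no whole reads, so the depth is unknown.

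All 20 libraries were fitted as 10 groups on log2(FPKM + 1) in limma 3.58.1 (R 4.3.3) with a mean-variance trend, 10 residual and 4.09 prior degrees of freedom. The fit was tested on simulated data. Levels carry the SD over 2 libraries. The members and lists were chosen with earlier results of these data known.

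Of 288 pairs of symbol and ID entered from background knowledge, 200 matched a symbol of the RefSeq annotation (assembly ASM3414082v1) on the same chromosome and within 2% in gene order (median difference 0.36%), and only these may be named. By rule, values in every library are given for the called members with the largest rise and fall and for the member with the highest level of each list. Those of further members, where libraries of a stage disagreed or a call was near, were chosen after their values were seen.

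Replicate 1 minus 2 correlated across genes between LJ and blade at 0.213 to 0.774 at the 5 stages, and same-numbered libraries were read as LJ and blade pairs within a stage. At the stages compared, the values were 0.478 at S1 and 0.213 at S2. The paired fit took 1 correlation of 0.495 for all stages, and how well it holds at S2 was not tested. This pairing bears on the test of the difference between tissues. The alternatives changed the pseudocount (0.1), the filter (none, or 5 FPKM), the scaling (upper quartile, quantile), the blocks (replicate number, LJ and blade pairs), the groups fitted (only those compared, or no S4) and the size required (2-fold), or left out 1 library, the lone library of that group then being taken to vary as the others do.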

Additional observations from a re-analysis of the deposited data

Results flagged for a closer look

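For 4 named genes the test of the difference between the blade and lamina joint changes from S1 to S2 passed, in the fit that pairs the LJ and blade libraries sharing a stage and a replicate number (limma, Benjamini-Hochberg adjusted over 26403 genes). CYCU4;1 changed by 0.64 in blade and by 2.27 in LJ, a difference of −1.64 ± 0.31 (SE, adjusted p = 0.0243, and 0.245 without pairs). The other 3 reached 1 FPKM in LJ libraries only and lay at the floor in blade, so the outcome of the test was fixed by their fall in LJ, and the values are given as a description. OSH1 changed by −0.25 in blade and −2.44 in LJ, a difference of 2.19 ± 0.39 (adjusted p = 0.0164, and 0.181 without pairs). OSH15 changed by −0.14 and −2.39, a difference of 2.25 ± 0.35 (adjusted p = 0.00687, and 0.0664 without pairs). OSH71 changed by −0.06 and −1.75, a difference of 1.69 ± 0.35 (adjusted p = 0.0389, and 0.427 without pairs). In LJ at S1 library 1 held OSH1 at 10.99 FPKM and library 2 at 2.66 FPKM, and in blade all 3 OSH genes were at 0.215 FPKM or less at S1 and S2.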

How the results depend on the processing

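The count of 734 genes became 159 with a pseudocount of 0.1 (34% higher, against 22.9%; 143 of them among the 734), 0 with only the groups compared, and 93 to 379 with 1 of the 4 libraries left out (85 of the 93 and 264 of the 379 among the 734). The count was 985 (34.3% higher) without the S4 groups and 569 to 799 under the other settings. The 30 genes that differed between tissues became 9 with a pseudocount of 0.1, 71 with no filter, 10 with a filter at 5 FPKM, 0 with only the groups compared (1347 at an unadjusted p under 0.05), 15 without the S4 groups, 202 with LJ and blade pairs and 13 to 43 with 1 library left out. Blade S1 and S2 libraries share only a replicate number (correlation of their deviations 0.153), and an additive replicate block gave 728 calls and lost that of CSLF6 (adjusted p = 0.0559). No named gene that was called changed direction under any alternative. With only the groups compared the 17 named calls had adjusted p from 0.220 to 0.225. MCM2, MCM5, MCM6, MCM7, CYCA3;1 and GRF8 were called in each fit with 1 library left out. Calls gained were PIP2;7 with a pseudocount of 0.1, D14 with the replicate block, PCNA, ORC1, CYCB2;1, CDKA;1, PIP2;7 and ADH2 without the S4 groups, and GRF6 and EUI1 without S2 library 2. The cause of these shifts was not tested. The 2 libraries a stage and an unknown depth limit what can be called, and values of genes near 1 FPKM depend on the pseudocount.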

Other observations

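The 44803 EPlOSAG features, not among those tested, summed to 688534 and 1422541 FPKM in the blade S1 libraries and to 10242043 and 1804457 FPKM in the blade S2 libraries. Over gene IDs the totals were 1016956 and 933840 FPKM at S1 and 1079325 and 953275 FPKM at S2. Between 20832 and 21553 gene IDs reached 1 FPKM in these 4 libraries.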
